A study of Mus musculus with 64 samples.

Results

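The vehicle arm of a bulk RNA-sequencing study of mouse brain was used to ask how far the transcriptional shift between 3 h and 4 weeks after an injection of isotonic saline differed between the prefrontal cortex (PFC) and the hypothalamus. For every gene, the shift in a region is the log2 fold change of the 3 h group over the 4-week group, and the comparison is the PFC shift minus the hypothalamus shift, a difference of differences. It compares 31 of the 64 libraries of the series, all those of vehicle-treated mice with at least 1000000 counted reads. The spread between replicates was estimated over all 8 groups (62 libraries), psilocybin mice included, over 18971 of 55401 genes, those that passed a filter on low counts. The 4 groups came from 16 male, chow-fed C57BL/6J mice that were 10 weeks old when the injections were given, 8 killed at each time. Each mouse gave its PFC and its whole hypothalamus, and 8 libraries were used per group except in the hypothalamus at 3 h, with 7. All mice, controls included, had also been sham-injected with saline during the days before the experiment began. All were killed in the same part of the light phase. The 4-week mice were also injected, so they are not untreated, and they were older and harvested on a later date than the 3 h mice. The injection, the age and the day of harvest cannot be told apart. The other arm had the same layout with 3 mg/kg psilocybin, and is used below as a second set of mice in which the same difference of differences was measured.

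An injection and the handling that goes with it are a mild stressor for a mouse. Adrenal corticosterone then binds the glucocorticoid receptor in many tissues and raises genes such as Tsc22d3 and Fkbp5, while neuronal activity raises immediate early genes, transcription factors such as those of the Fos, Egr and Nr4a families, through cAMP, calcium and kinase signalling. Clock genes of the Period family respond to both inputs as well as to the time of day. The cortex and the hypothalamus share the glucocorticoid receptor, but differ in their neurons and in their timing signals.

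Depth and tissue identity were checked first. Counted reads lay between 8061033 and 70361839 per vehicle library (median 17977202), and the library left out, replicate 2 of the hypothalamus at 3 h, had 211111. Over 12 markers of cortical excitatory neurons, the summed level was 2106 to 3037 CPM (counts per 1000000 counted reads) in the PFC and 199 to 338 CPM in the hypothalamus, and over 15 markers of hypothalamic neurons it was 1.36 to 15.7 CPM in the PFC and 409 to 852 CPM in the hypothalamus. Some libraries stood apart. PFC vehicle 4-week replicate 3, the deepest library, had the 15.7 CPM of hypothalamic markers against a group median of 2.75 CPM, PFC vehicle 4-week replicate 6 had 2243 CPM of striatum markers against a median of 316 CPM, and hypothalamus vehicle 4-week replicate 3 had 1279 CPM of choroid plexus markers against a median of 53.9 CPM. In bulk tissue, fewer cells of a type and less RNA per cell cannot be told apart. The counts over all genes and over each list are therefore also given without 5 vehicle libraries, an alternative chosen after seeing the data. They are those whose striatum or choroid plexus markers, or the neuron markers of the other region, summed to over 3 times their group median (PFC 4-week replicates 3, 6, 7 and 8 and hypothalamus 4-week replicate 3), and are called the marker-rich libraries below. Pituitary markers were not part of this rule, and the libraries highest in them, such as hypothalamus 4-week replicate 1 with 376.7 CPM, were kept.

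In the PFC, 896 genes (4.72% of those tested) had an adjusted p under 0.05 in edgeR's quasi-likelihood test, 453 higher (2.39%) and 443 lower (2.34%) at 3 h. In the hypothalamus there were 130 (0.685%), 99 higher (0.522%) and 31 lower (0.163%). The difference of differences passed the same threshold in 7 genes (0.0369%). For 6 of them, Bhlhe40, Per2, Otub2, Ier5, Inka2 and Alox12b, the value was higher in the PFC (0.0316% of genes tested), and for 1, Foxb1, it was lower (0.00527%). These counts depended on the procedure. DESeq2 called 20 genes for the difference, 9 higher and 11 lower, and voom with quality weights and a within-mouse correlation 29, 12 higher and 17 lower, so that the excess of higher values was not kept. The weights and the correlation (estimated at 0.0282) entered that fit together and were not tried apart. It also called 1478 genes in the PFC, 1120 in the hypothalamus and 323 in both regions. In edgeR, a further 74 genes (0.39%) passed in both regions and none of these passed for the difference, 58 higher and 16 lower at 3 h. No gene passed in both regions in opposite directions. The 74 were 8.26% of the genes called in the PFC and 56.9% of those called in the hypothalamus in edgeR, shares that moved with the counts just given. Of the 822 genes called in the PFC and not in the hypothalamus, 6 passed the test of the difference, and of the 56 called in the hypothalamus alone, 1 did. A call in 1 region and not in the other was thus seldom accompanied by a called difference. Over all genes tested, the 95% interval of the difference, not adjusted for the number of genes, had a median half-width of 0.39 (log2). Regional differences smaller than this were mostly beyond the precision of 7 or 8 libraries per group. Larger ones could also miss the adjusted threshold, as did that of Sgk1 (-0.89). At an unadjusted p under 0.05 there were 1107 genes for the difference (5.84% of those tested).

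**Figure D1:**
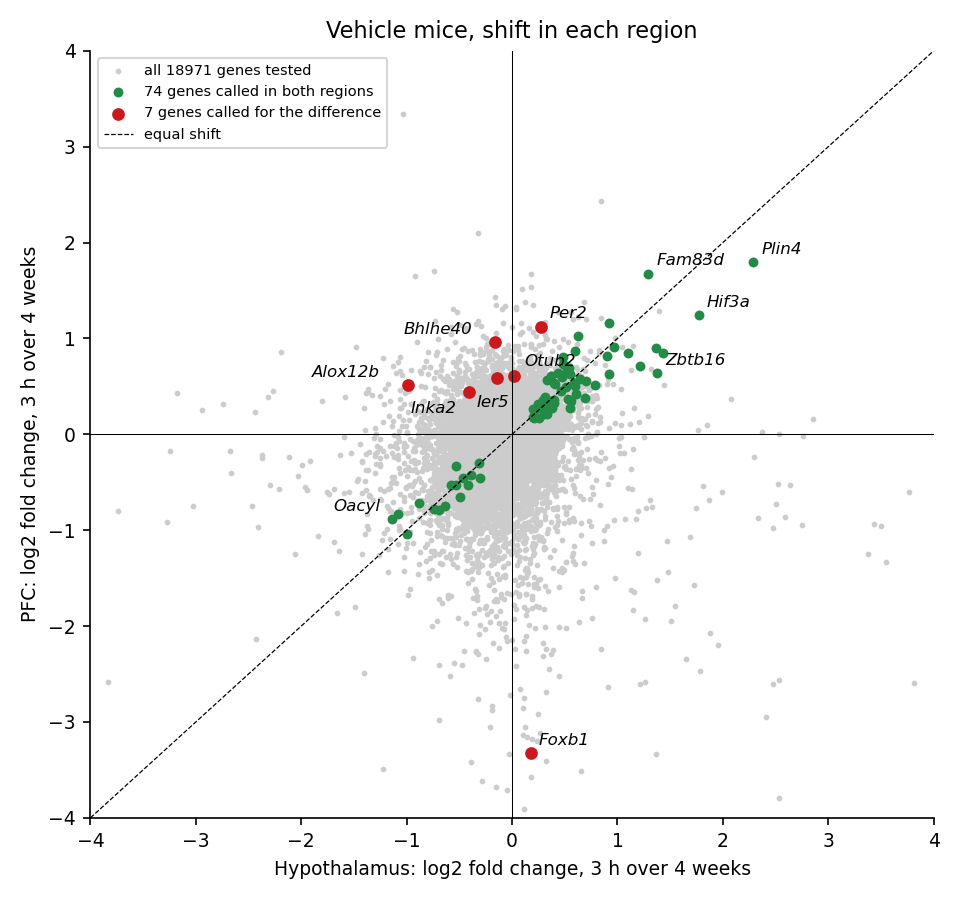
Log2 fold change of 3 h over 4 weeks in vehicle mice for each gene tested, hypothalamus on the x axis and PFC on the y axis, with the 74 genes called in both regions and the 7 called for the difference in color. The 74 lie along the dashed line of equal shift, in 2 quadrants, while 6 of the 7 lie above it and Foxb1 far below it. 9 genes lie outside the plotted range of 4.

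The counts of calls depended on a few libraries. Without the 5 marker-rich libraries, 449 genes were called in the PFC, 83 in the hypothalamus, 37 in both and 2 for the difference, Bhlhe40 and Per2. The values of the others in that fit were 0.52 for Otub2, 0.77 for Ier5, 0.82 for Inka2 and 1.52 for Alox12b, against 0.59, 0.73, 0.85 and 1.50 in all libraries, and -1.03 against -3.50 for Foxb1. In contrast, without hypothalamus psilocybin 4-week replicate 5, the counts rose to 1571 in the PFC, 225 in the hypothalamus, 124 in both and 16 for the difference. That library had 2653 CPM of hypothalamic neuron markers against a group median of 556.8 CPM, and it belongs to none of the vehicle groups. A fit of the vehicle groups alone gave 3 for the difference. Leaving out 1 vehicle library at a time gave 480 (without PFC 3 h replicate 4) to 1378 (without PFC 3 h replicate 5) in the PFC, 67 (without hypothalamus 3 h replicate 4) to 140 (without PFC 3 h replicate 4) in the hypothalamus and 6 to 16 for the difference (16 without PFC 4-week replicate 8). With the mouse as a block, which compares the regions within each of the mice, 3 genes were called for the difference, Bhlhe40, Otub2 and Per2. Within the cages whose RNA was extracted in separate pools, the difference was called for 4 genes in cages 1 to 4, Bhlhe40 and Inka2 of the 7 among them, and for 0 in cages 5 to 8. At an unadjusted p under 0.05 there were 2254 and 552 genes for the difference. In the PFC, 1075 genes were called in cages 1 to 4 and 44 in cages 5 to 8.

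Promoter sequences are given for 2 genes with a larger shift in the PFC and for 2 with a shift in both regions. The inputs named above can act through short DNA elements, only some of which lie in promoters. The motifs searched, on both strands, were TGACG (a half-site of the cAMP response element), the full palindrome TGACGTCA, which contains it, CACGTG (the E-box bound by CLOCK and BMAL1 and by BHLHE40) and AGAACA (a half-site of the glucocorticoid response element). The windows are the 250 bases before a RefSeq transcription start in GRCm38.p6, written 5′ to 3′ on the strand of the gene, with matches in capitals.
Ier5 (chr1:155099637-155099886, minus strand): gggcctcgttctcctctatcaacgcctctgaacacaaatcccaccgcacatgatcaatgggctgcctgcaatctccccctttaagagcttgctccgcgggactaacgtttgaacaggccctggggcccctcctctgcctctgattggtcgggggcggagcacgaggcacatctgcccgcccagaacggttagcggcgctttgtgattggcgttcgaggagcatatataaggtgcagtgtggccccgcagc
Otub2 (chr12:103388431-103388680, plus strand): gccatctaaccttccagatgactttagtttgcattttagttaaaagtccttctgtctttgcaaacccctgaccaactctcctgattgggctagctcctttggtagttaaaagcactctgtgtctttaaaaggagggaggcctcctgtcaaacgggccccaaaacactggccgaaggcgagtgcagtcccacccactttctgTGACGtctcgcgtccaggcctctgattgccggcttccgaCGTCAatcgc
Fkbp5 (chr17:28486150-28486399, minus strand): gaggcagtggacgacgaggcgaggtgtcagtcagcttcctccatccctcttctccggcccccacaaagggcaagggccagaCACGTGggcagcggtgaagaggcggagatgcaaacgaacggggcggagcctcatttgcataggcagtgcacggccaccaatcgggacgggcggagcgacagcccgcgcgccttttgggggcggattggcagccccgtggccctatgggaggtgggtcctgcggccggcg
Bcl6 (chr16:23988853-23989102, minus strand): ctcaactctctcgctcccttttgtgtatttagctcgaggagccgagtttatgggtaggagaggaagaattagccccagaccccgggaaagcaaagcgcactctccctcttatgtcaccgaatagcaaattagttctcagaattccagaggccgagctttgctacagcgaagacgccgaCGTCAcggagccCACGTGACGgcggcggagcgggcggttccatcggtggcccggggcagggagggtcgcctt
The Otub2 window holds 2 matches to TGACG, the Fkbp5 window 1 to CACGTG, the Bcl6 window 2 to TGACG and 1 to CACGTG that overlaps one of them, and the Ier5 window none. Otub2 has 2 further windows and Bcl6 1 further window in the table. The Otub2 window from 103376644 holds no match, and the one from 103388432, nearly the same as that printed, holds the same 2. The further Bcl6 window, from 23981284, holds 1 match to AGAACA, on the other strand (TGTTCT). Of all 32851 windows, 17.77% held TGACG, 1.55% TGACGTCA, 6.02% CACGTG and 16.08% AGAACA. Per gene, TGACG was found for 2 of the 4 genes called for the difference that have a window (Inka2 and Otub2) and for 24 of the 59 genes called in both regions that have one, against 19.79% of all 27025 genes. CACGTG was found for 0 of the 4 and 11 of the 59, against 6.86%, and AGAACA for 0 of the 4 and 11 of the 59, against 18.18%. A gene was counted if any of its windows held the motif. The 27025 genes include ones not tested here, so the shares come from unlike sets of genes and show no excess or lack of a motif. Bhlhe40, Per2 and Foxb1 have no window in the table. These are matches of letters, not binding sites, and sequence outside the windows was not searched. The presence or absence of a match thus says little about any of the inputs.

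Bhlhe40 (ENSMUSG00000030103.11, chromosome 6, 108660629 to 108666925 in GRCm38, plus strand), a transcriptional repressor of the circadian clock that is also induced by neuronal activity, had the smallest p-value of the difference. In the PFC its level ran from 140.2 to 253 CPM (median 189) at 3 h and from 77.3 to 128 CPM (median 99.1) at 4 weeks. In the hypothalamus the corresponding ranges were 62.8 to 79.9 CPM (median 71.4) and 68.3 to 87.0 CPM (median 78.3). All 8 PFC libraries at 3 h exceeded all 8 at 4 weeks, whereas the hypothalamus groups overlapped. Such separation was seen for 0.432% of the genes tested in the PFC and 0.859% in the hypothalamus. The PFC shift was 0.96 (SE 0.10, 1.95-fold, adjusted p = 2.8e-09), the hypothalamus shift was -0.16 (SE 0.11, adjusted p = 0.82), and the difference was 1.12 (SE 0.15, 95% interval 0.83 to 1.42, adjusted p = 5.3e-06). It was 1.14 in cages 1 to 4 and 1.13 in cages 5 to 8. Within single vehicle mice, the log2 ratio of PFC over hypothalamus ran from 0.83 to 2.00 at 3 h (7 mice) and from -0.05 to 0.74 at 4 weeks (8 mice). For Per2, Ier5, Otub2, Inka2, Alox12b and Foxb1, the ranges of this ratio at 3 h and 4 weeks overlapped.

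Per2 (ENSMUSG00000055866.9, chromosome 1, 91415982 to 91459324, minus strand) encodes a core repressor of the clock. Its PFC level was 34.0 to 48.3 CPM (median 40.8) at 3 h and 13.8 to 27.3 CPM (median 18.1) at 4 weeks, with no overlap. The hypothalamus had 23.6 to 29.2 CPM (median 25.0) at 3 h and 17.7 to 23.8 CPM (median 22.3) at 4 weeks. The 3 h PFC libraries were thus above every hypothalamus library, and the 4-week PFC libraries lay among or below them. The shift was 1.12 (SE 0.11, adjusted p = 2.9e-10) in the PFC and 0.28 (SE 0.11, adjusted p = 0.44) in the hypothalamus, a difference of 0.85 (95% interval 0.53 to 1.16, adjusted p = 0.012). It was 0.57 in cages 1 to 4 and 1.11 in cages 5 to 8.

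Ier5 (chromosome 1, 155096361 to 155099636, minus strand), an immediate early gene whose protein takes part in the heat shock response, was at 75.9 to 104 CPM (median 93.2) in the PFC at 3 h and 48.1 to 69.2 CPM (median 61.9) at 4 weeks. These groups did not overlap. In the hypothalamus it was at 14.2 to 19.0 CPM (median 14.8) and 13.9 to 19.5 CPM (median 16.4). The shifts were 0.59 (SE 0.09) and -0.14 (SE 0.10), and the difference was 0.73 (95% interval 0.45 to 1.01, adjusted p = 0.012). With the mouse as a block, the difference was 0.73 and its adjusted p was 0.13.

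Otub2 (chromosome 12, 103388682 to 103406339, plus strand), a deubiquitinating enzyme, was at 50.3 to 73.0 CPM (median 58.5) in the PFC at 3 h against 31.5 to 50.9 CPM (median 38.7) at 4 weeks. The highest 4-week library just exceeded the lowest 3 h library. The hypothalamus had 13.3 to 18.6 CPM (median 17.1) and 14.7 to 17.8 CPM (median 16.4). The PFC shift was 0.61 (SE 0.08, adjusted p = 1.3e-07), the hypothalamus shift was 0.02 (SE 0.08), and the difference was 0.59 (95% interval 0.37 to 0.81, adjusted p = 0.012). With the mouse as a block its adjusted p was 0.014.

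Inka2 (chromosome 3, 105704599 to 105718156, plus strand), which encodes an inhibitor of the kinase PAK4, was at 162 to 258 CPM (median 221) in the PFC at 3 h and 136 to 186 CPM (median 171) at 4 weeks. In the hypothalamus it was at 7.75 to 17.8 CPM (median 9.76) at 3 h and 10.1 to 19.0 CPM (median 14.3) at 4 weeks. The shift was 0.44 (SE 0.11, adjusted p = 0.0086) in the PFC and -0.41 (SE 0.12, adjusted p = 0.14) in the hypothalamus, so that the difference of 0.85 (95% interval 0.52 to 1.18, adjusted p = 0.012) had a part from each region. Both pairs of groups overlapped, and replicate 6 was the lowest 3 h library in the PFC and the highest in the hypothalamus. With the mouse as a block the difference was 0.88 and its adjusted p was 0.18.

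**Figure D2:**
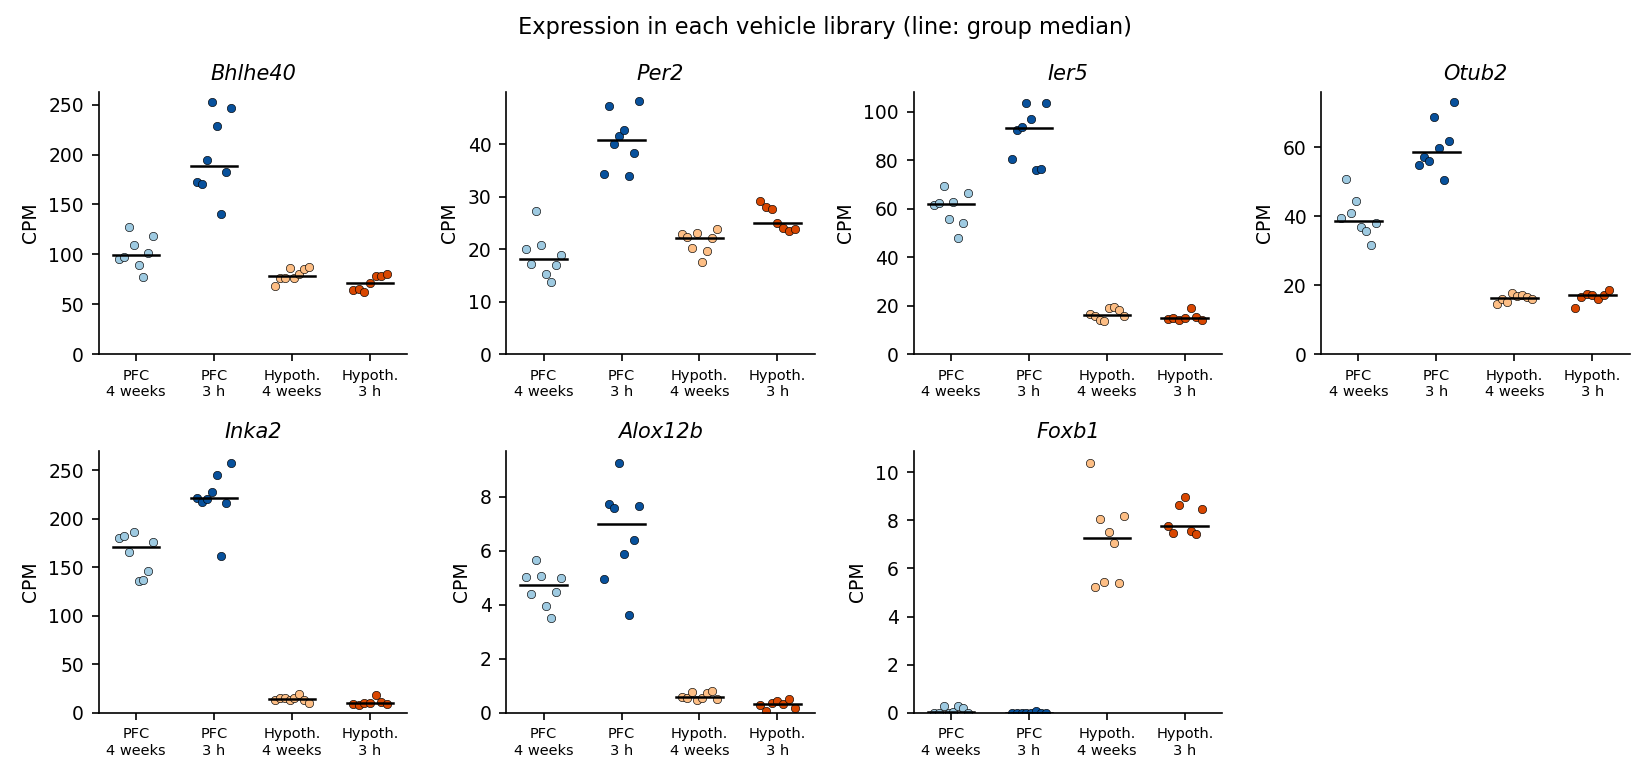
Expression in CPM of the 7 genes called for the difference, 1 point per vehicle library, with a line at each group's median. In Bhlhe40, Per2, Ier5 and Otub2 the 3 h PFC libraries lie above the 4-week PFC libraries, with a slight overlap in Otub2, while the hypothalamus groups overlap. Foxb1 is near 0 in the PFC.

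The other pair of calls rested on low counts in 1 region. Alox12b (chromosome 11, 69156989 to 69169792, plus strand), a lipoxygenase known from the epidermis, was at 3.62 to 9.25 CPM (median 6.98) in the PFC at 3 h and 3.50 to 5.64 CPM (median 4.74) at 4 weeks. In the hypothalamus it was at 0.0656 to 0.499 CPM (median 0.326) at 3 h and 0.487 to 0.801 CPM (median 0.567) at 4 weeks, where the 7 libraries held 39 reads in all and the 8 held 99. It was the one gene of the 7 called in the hypothalamus (-0.99, SE 0.24, adjusted p = 0.034), and its PFC shift of 0.51 (SE 0.17) had an adjusted p of 0.06. The difference was 1.50 (95% interval 0.91 to 2.09, adjusted p = 0.013), and with the mouse as a block it was 1.47 with an adjusted p of 0.18. Foxb1 (chromosome 9, 69757710 to 69760940, minus strand), a forkhead transcription factor of the hypothalamus, was at 7.42 to 8.96 CPM at 3 h and 5.22 to 10.4 CPM at 4 weeks in the hypothalamus. In the PFC, 1 read was counted in the 8 libraries at 3 h and 27 in the 8 at 4 weeks, 19 of them in replicate 3, the library with the most hypothalamic markers. Its level in that library was 0.297 CPM, and 0.272 CPM in the next highest. The fitted difference of -3.50 (95% interval -4.98 to -2.02, adjusted p = 0.039) rested on these few PFC reads. It was -2.37 (adjusted p = 0.63) without PFC vehicle 4-week replicate 3, and -1.03 (adjusted p = 0.99) without the 5 marker-rich libraries. A gene that overlaps Foxb1 on the other strand, B230323A14Rik, could share its reads, as could 0610040F04Rik those of Bhlhe40.

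The members just outside the threshold, named after their values were seen, were Brs3 and Cdr2 (both at an adjusted p of 0.07) and Rasd1 (0.077). Rasd1, a small G protein induced by glucocorticoids, was at 4.24 to 9.67 CPM (median 6.71) in the PFC at 3 h against 2.02 to 4.95 CPM (median 3.08) at 4 weeks, and at 14.4 to 27.7 CPM and 14.1 to 26.8 CPM in the hypothalamus. Its shift was 1.16 (SE 0.20, adjusted p = 0.00015) in the PFC and -0.08 (SE 0.19) in the hypothalamus. Cdr2 went the other way. It was at 28.0 to 35.3 CPM (median 31.8) in the hypothalamus at 3 h and 21.6 to 28.0 CPM (median 23.6) at 4 weeks, a shift of 0.37 (SE 0.09, adjusted p = 0.015) whose adjusted p was 0.068 without hypothalamus 3 h replicate 4 and 0.051 without hypothalamus 4-week replicate 6, and its PFC shift was -0.17 (SE 0.08, adjusted p = 0.28). Brs3, a receptor of hypothalamic neurons, had 0 reads in the PFC at 3 h and 69 at 4 weeks, 67 of them in replicate 3.

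The psilocybin arm gave the same difference of differences in other mice. There 22 genes passed (0.116%), 16 higher (0.0843%) and 6 lower (0.0316%) in the PFC, and 3059 (16.1%) had an unadjusted p under 0.05. DESeq2 called 98, and weighted voom with the mouse correlation 120. Hypothalamus psilocybin 4-week replicate 5, the library rich in hypothalamic neuron markers, is part of this arm, and without it 23 genes passed and 1901 had an unadjusted p under 0.05. All 7 vehicle genes had the same sign, and 4 passed. For Bhlhe40 the difference was 0.88 (SE 0.15, adjusted p = 0.0017), with 151 to 249.6 CPM in the PFC at 3 h and 87.9 to 119.7 CPM at 4 weeks. For Ier5 it was 0.99 (SE 0.14, adjusted p = 4.4e-05), for Otub2 0.55 (SE 0.11, adjusted p = 0.019) and for Inka2 0.79 (SE 0.16, adjusted p = 0.023). Per2 had a difference of 0.68 (SE 0.16, adjusted p = 0.052), which passed in some alternatives, among them DESeq2 (adjusted p = 0.011), weighted voom (3.4e-05) and the fit without hypothalamus psilocybin 4-week replicate 5 (0.79, adjusted p = 0.0021). The values of the 2 low genes were 0.07 (SE 0.30, adjusted p = 0.92) for Alox12b and -1.01 (SE 0.95, adjusted p = 0.63) for Foxb1. Conversely, 22 of the 22 genes called in the psilocybin arm had the same sign in vehicle mice. The share of all genes with the same sign of the difference in both arms was not counted. The arms also had the same ages and times of harvest, and their part in the shared signs was not tested. Without the 5 marker-rich vehicle libraries, 16 genes passed in the psilocybin arm, and with the mouse as a block 3 genes did, Ier5, Zbtb16 and Bhlhe40. The vehicle difference minus the psilocybin difference passed for 0 genes in edgeR, with 772 at an unadjusted p under 0.05, and for 2 in DESeq2 and 0 in weighted voom. In edgeR this contrast was 0.25 (adjusted p = 0.97) for Bhlhe40 and 1.43 (adjusted p = 0.97) for Alox12b.

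**Figure D3:**
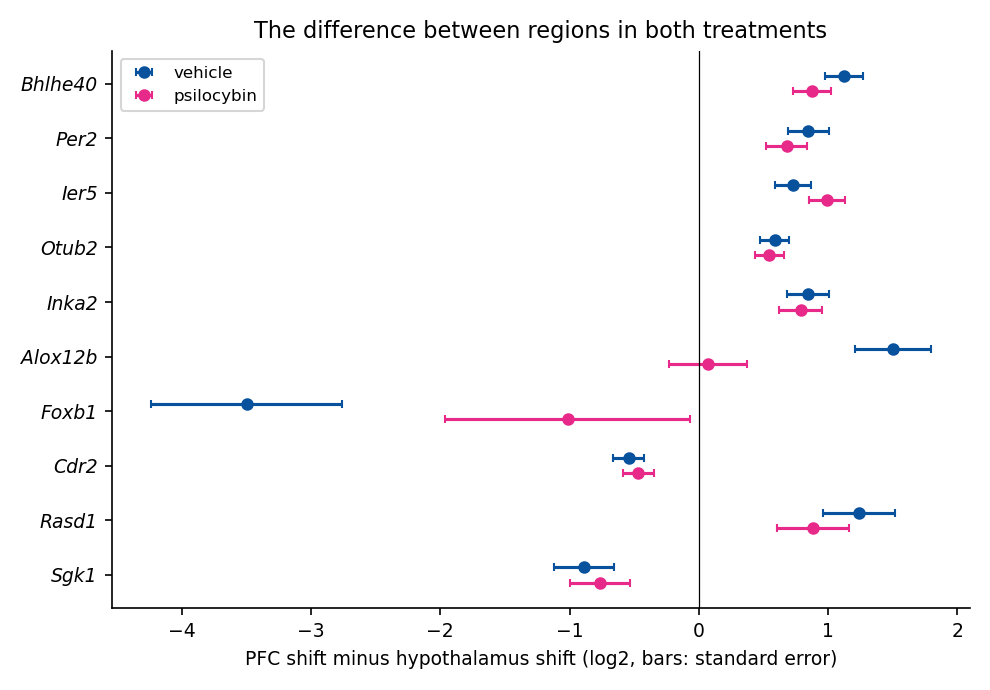
PFC shift minus hypothalamus shift (log2, x axis) in vehicle and psilocybin mice for the 7 genes called in vehicle mice and for Cdr2, Rasd1 and Sgk1, with bars of 1 standard error. The bars of the treatments overlap for all but Alox12b, at 1.50 and 0.07, and Foxb1, at -3.50 and -1.01.

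Among the 74 genes that shifted in both regions, the absolute shift had a median of 0.53 in the PFC and 0.52 in the hypothalamus, sizes that the choice of genes by these shifts largely sets. The shift was larger in the PFC for 30 and in the hypothalamus for 44. At an unadjusted p under 0.05 for the difference there were 7 of them, the smallest p being 0.0116. All 74 moved in the same direction in both regions of the psilocybin mice. The share of all genes that did so was not counted. In the psilocybin mice, 59 of the 74 were called in the PFC, 40 in the hypothalamus and 34 in both. Of all genes, 5.96% were called in the PFC and 1.16% in the hypothalamus of these mice. Both arms had the same ages and times of harvest, and their part in the shared direction was not tested.

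The genes that rose most clearly in both regions included Tsc22d3 (chromosome X, 140539528 to 140600659), which encodes the glucocorticoid-induced protein GILZ. It was at 73.6 to 152 CPM (median 89.6) in the PFC at 3 h and 48.4 to 62.8 CPM (median 60.0) at 4 weeks. In the hypothalamus it was at 103 to 169.5 CPM (median 155) at 3 h and 65.6 to 82.4 CPM (median 75.2) at 4 weeks, so that the groups were apart in both regions. The shifts were 0.82 (SE 0.10) and 0.90 (SE 0.11), and the interval of their difference was -0.38 to 0.21. Fkbp5, a co-chaperone that restrains the glucocorticoid receptor, rose by 0.86 (SE 0.11) in the PFC, from a median of 29.6 to one of 49.2 CPM, and by 0.60 (SE 0.11) in the hypothalamus, from 28.9 to 41.9 CPM. Its groups did not overlap in either region, and the difference lay between -0.04 and 0.58. Hif3a (1.24 and 1.77), Plin4 (1.79 and 2.28), Cdkn1a (0.71 and 1.22), Bcl6 (0.51 and 0.60), Klf15 (0.38 and 0.69) and Zbtb16 (0.64 and 1.38), all known to respond to glucocorticoids, rose in both regions, the PFC value being given first. The difference was -0.74 (SE 0.28, adjusted p = 0.66) for Zbtb16. Plin4, a lipid droplet protein, spread widely between animals, at 1.05 to 13.9 CPM in the PFC and 4.81 to 43.9 CPM in the hypothalamus at 3 h. For Zbtb16 the call in the PFC was lost without any single one of PFC 4-week replicates 1, 5, 6, 7 and 8 and PFC 3 h replicates 4, 7 and 8, where the shift lay between 0.55 and 0.66, and without the 5 marker-rich libraries it was 0.47. The PFC call of Klf15 was lost without any single one of PFC 4-week replicates 1, 2, 4 and 7 and PFC 3 h replicates 4 and 8, where the shift lay between 0.29 and 0.37.

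Other genes also rose in both regions. Banp, a nuclear protein that binds unmethylated CpG-rich promoters, was at 29.1 to 48.5 CPM in the PFC at 3 h and 17.5 to 22.3 CPM at 4 weeks, and at 16.3 to 31.0 CPM and 8.81 to 14.8 CPM in the hypothalamus. Its shifts were 0.85 and 1.10 (SE 0.10 and 0.11), and a gene on the other strand, Gm17709, overlaps it. Mfsd2a, the lysolipid transporter of the blood-brain barrier, shifted by 0.91 and 0.96 with no overlap of groups in either region. Gpt2, a mitochondrial alanine aminotransferase, shifted by 0.63 and 0.55, and P4ha1, a subunit of prolyl 4-hydroxylase, by 0.67 and 0.52. The intervals of the difference were -0.39 to 0.28 for Mfsd2a, -0.14 to 0.30 for Gpt2 and -0.09 to 0.40 for P4ha1.

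Fewer genes fell in both regions. Insig1, which holds back cholesterol synthesis, was at 52.5 to 73.6 CPM (median 61.1) in the PFC at 3 h and 76.5 to 93.4 CPM (median 82.9) at 4 weeks, a shift of -0.46 (SE 0.07). In the hypothalamus it was at 75.4 to 104.7 CPM (median 85.5) and 92.9 to 117 CPM (median 109), a shift of -0.31 (SE 0.07). The PFC groups were apart and the hypothalamus groups overlapped. The hypothalamus call of Insig1 was lost without hypothalamus 3 h replicate 3 (-0.29) or replicate 6 (-0.27) and without the 5 marker-rich libraries (-0.30). Zkscan2, a zinc finger protein, shifted by -0.66 and -0.50, Creb5, a transcription factor of the CREB family, by -0.79 and -0.69, Cd180, a relative of the Toll-like receptors, by -0.78 and -0.74, Zfp810 by -0.45 and -0.47, and Lrrc29 by -1.04 and -0.99. Without the 5 marker-rich libraries, the PFC values of Creb5 (-0.63, adjusted p = 0.065) and Lrrc29 (-0.92, adjusted p = 0.065) were no longer called. Without hypothalamus 3 h replicate 4, the hypothalamus values of Creb5 (-0.60), Cd180 (-0.67) and Lrrc29 (-0.93) were not called, nor was that of Lrrc29 without hypothalamus 3 h replicate 8 (-0.89). Reads of Zfp810 and Cd180 may be shared with overlapping genes (Gm48627 and Gm18225, and Mast4).

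**Figure D4:**
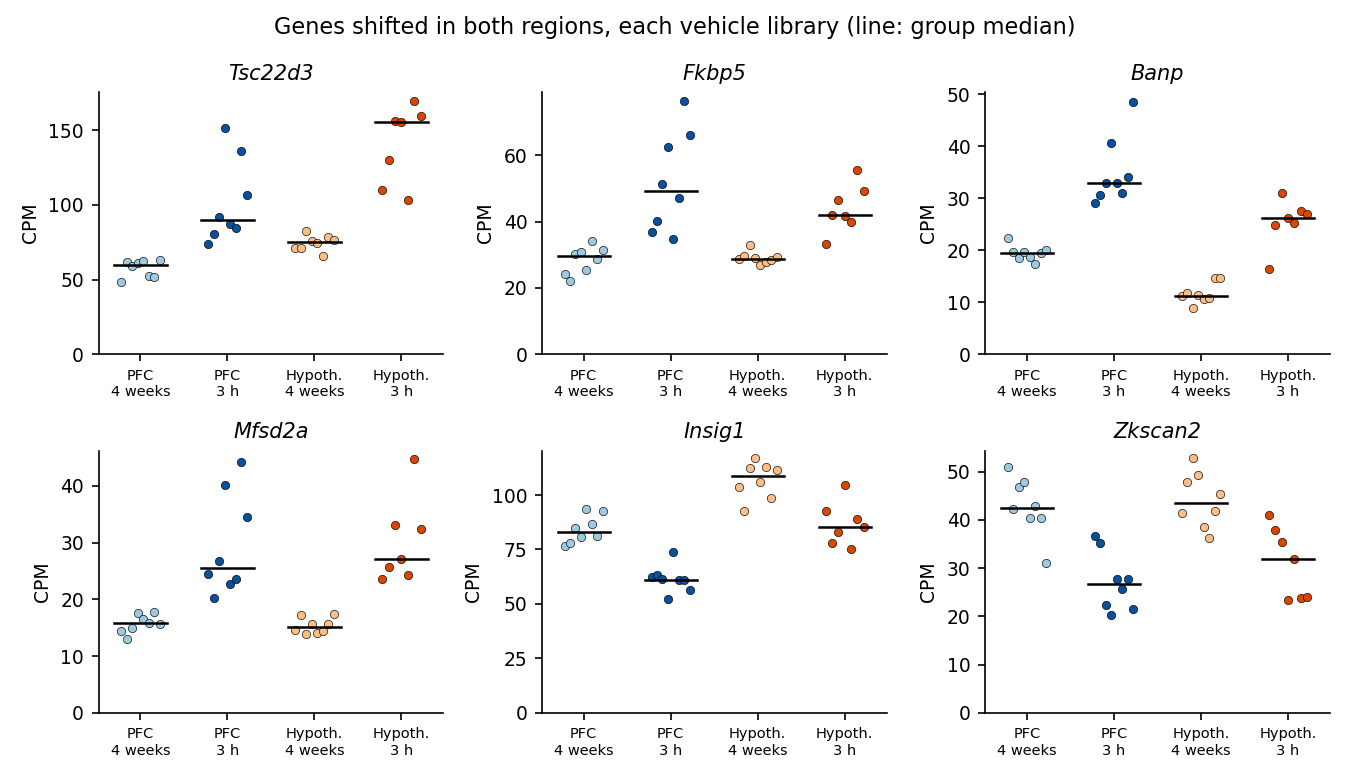
Expression in CPM of 6 genes called in both regions, 1 point per vehicle library, with a line at each group's median. Tsc22d3, Fkbp5, Banp and Mfsd2a are higher and Insig1 and Zkscan2 lower at 3 h in both regions, by similar log2 amounts.

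Lists of genes with a common function were then read against the whole table, in which 4.72% of genes were called in the PFC and 0.685% in the hypothalamus, with median shifts near 0 (-0.004 and 0.002). Of 32 glucocorticoid targets, 11 rose in the PFC and 10 in the hypothalamus, 8 of them in both, and none fell. Their median shift was 0.39 and 0.33, and none passed for the difference. The member with the smallest p for the difference was Sgk1, a kinase induced by glucocorticoids. It was at 39.7 to 99.0 CPM (median 58.1) in the hypothalamus at 3 h and 25.7 to 45.9 CPM (median 29.0) at 4 weeks, a shift of 1.16 (SE 0.17, adjusted p = 9.8e-06). In the PFC it had medians of 60.2 and 49.9 CPM and a shift of 0.27 (SE 0.16, adjusted p = 0.38). The difference was -0.89 (95% interval -1.35 to -0.43, adjusted p = 0.18), and -0.77 (adjusted p = 0.15) in psilocybin mice. Per1, also a clock gene, went the other way, with shifts of 0.76 (adjusted p = 1.6e-05) and 0.26 (adjusted p = 0.57). The count was 10 in each region without the 5 marker-rich libraries.

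Immediate early genes gave a different pair of counts. Of the 25 tested, 13 rose in the PFC and 2 in the hypothalamus (Fosb and Fosl2, both also risen in the PFC), with median shifts of 0.59 and 0.22. Ier5 passed for the difference and the other 24 did not. Nr4a3, a nuclear receptor induced by activity, was at 23.3 to 32.7 CPM in the PFC at 3 h and 7.42 to 14.7 CPM at 4 weeks. Its hypothalamus levels were 7.09 to 11.6 CPM and 4.50 to 9.42 CPM. Its shifts were 1.27 (adjusted p = 1.5e-07) and 0.56 (adjusted p = 0.15), with a difference of 0.71 (95% interval 0.24 to 1.18, adjusted p = 0.43). Arc, which encodes a synaptic protein, had shifts of 1.68 (SE 0.37, adjusted p = 0.0032) and 0.18 (SE 0.40), with 43.8 to 442 CPM in the PFC at 3 h and 19.6 to 249.8 CPM at 4 weeks. Its difference of 1.50 had an adjusted p of 0.56 in vehicle mice and was 2.56 (adjusted p = 0.039) in psilocybin mice, and the contrast between the treatments was -1.06 (adjusted p = 0.97). Fosb rose by 0.90 in the PFC and by 1.37 in the hypothalamus. Without the 5 marker-rich libraries, 10 rose in the PFC, 2 in the hypothalamus and 0 passed for the difference, with Ier5 at 0.77 (adjusted p = 0.057). Of 20 activity-induced effector genes, 2 rose in the PFC and 1 in the hypothalamus. Tiparp had shifts of 0.52 (adjusted p = 0.008) and -0.03, and Inhba, a subunit of activin, of -0.24 and 0.40, neither of them called.

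Of 22 circadian clock genes, 3 rose in the PFC (Per2, Bhlhe40 and Per1) and 0 were called in the hypothalamus, with median shifts of 0.11 and 0.03. Bhlhe40 and Per2 passed for the difference. Over the list, 17 of 22 had a positive difference, against 9226 of all 18971 genes, and 6 had an unadjusted p under 0.05. Of 4 members named after their values were seen, none was called, with shifts of -0.02 and -0.00 for Arntl, -0.01 and 0.04 for Clock, -0.11 and -0.20 for Dbp, and -0.06 and -0.08 for Per3. When the 5 marker-rich libraries were left out, 4 clock genes rose in the PFC and the same pair passed for the difference.

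No stress gene of the endoplasmic reticulum or of the cytosol passed for the difference. Of 19 endoplasmic reticulum stress genes, 11 rose in the PFC and 3 in the hypothalamus. Xbp1, a transcription factor of that response, shifted by 0.61 and 0.37 and was called in both, and Pdia4, a protein disulfide isomerase, by 0.64 (adjusted p = 3.5e-05) and 0.22 (adjusted p = 0.58). These counts were 7 and 1 without the 5 marker-rich libraries, where the median shifts of the list were 0.29 and 0.18, against 0.26 and 0.18 in all libraries. Of 19 heat shock and cold-inducible genes, 3 rose and 1 fell in the PFC and 3 rose and 2 fell in the hypothalamus. Dnajb1 rose by 0.57 and 0.64 and Cirbp, an RNA-binding protein raised by cooling, fell by 0.53 in the PFC and by 0.42 in the hypothalamus. The latter call was lost without any single one of hypothalamus 3 h replicates 4, 7 and 8 and hypothalamus 4-week replicates 1, 4 and 8, where it lay between -0.41 and -0.38. Dnajb5 rose in the PFC (0.56) with a hypothalamus value of 0.20, and Hspa1b, an inducible chaperone, rose in the hypothalamus (1.44, adjusted p = 0.0073) with a PFC value of 0.52 (adjusted p = 0.34). Hspa1b has a near-identical neighbor, Hspa1a, so its reads are uncertain. Of 23 cholesterol synthesis genes, 5 fell in the PFC and 2 in the hypothalamus. Stard4, a sterol transfer protein, had shifts of -0.39 (adjusted p = 0.009) and -0.13. Leaving out the 5 marker-rich libraries, 1 fell in the PFC and 0 in the hypothalamus.

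**Figure D5:**
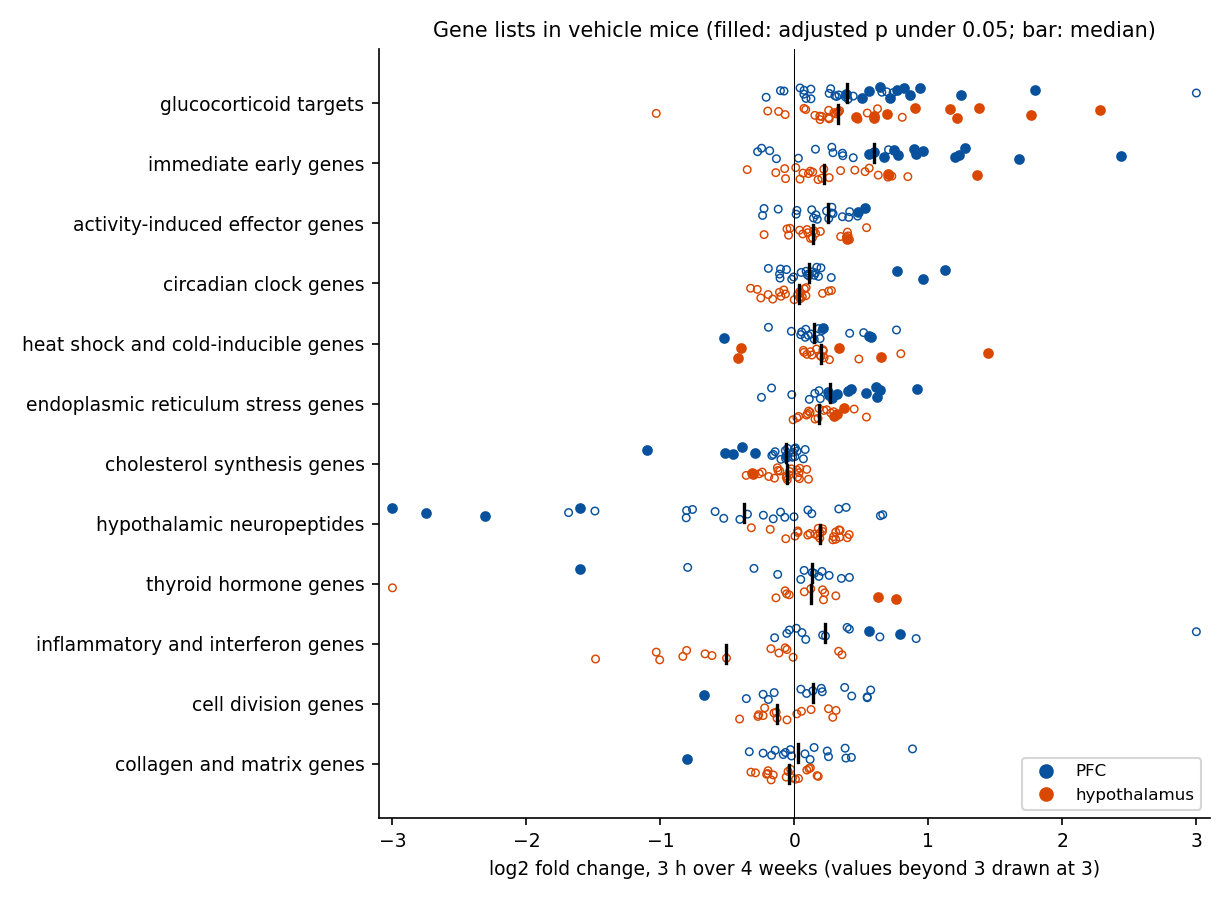
Log2 fold change of 3 h over 4 weeks in vehicle mice (x axis) for the members of 12 gene lists, PFC and hypothalamus drawn apart, with filled points for an adjusted p under 0.05 and a bar at the median. Filled points of the glucocorticoid targets lie on the right in both regions (11 and 10), while those of the immediate early genes are 13 in the PFC and 2 in the hypothalamus.

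The remaining lists had few calls. Of 24 hypothalamic neuropeptides, 4 were called lower in the PFC at 3 h and 0 were called in the hypothalamus. In the PFC, 6 of 24 shifts were positive (median -0.38, and 0.04 without the 5 marker-rich libraries). In the hypothalamus, 21 of 24 were positive (median 0.19). Nts was at 0 to 0.948 CPM in the PFC at 3 h and 0 to 12.3 CPM at 4 weeks, with its highest levels in replicates 6, 3 and 7 (12.3, 5.10 and 5.00 CPM), all among the 5 marker-rich libraries. The hypothalamus had 20.9 to 38.9 CPM of it. Its difference of -2.86 (adjusted p = 0.27) was -0.14 without the 5 marker-rich libraries. Without PFC 4-week replicate 3 alone, 0 neuropeptides were lower in the PFC, and without the 5 libraries 0 were lower and 1 was higher. The part of other tissue in these calls was not tested. For Adcyap1 the shifts were -0.41 (adjusted p = 0.062) and 0.29, the difference being -0.69 (95% interval -1.07 to -0.32, adjusted p = 0.24). Of 13 thyroid hormone genes, 1 fell in the PFC (Trh, the hypothalamic releasing hormone, -1.60, with 0.298 to 2.19 CPM at 3 h and 0.77 to 9.29 CPM at 4 weeks, the highest in replicate 3) and 2 rose in the hypothalamus. Without PFC 4-week replicate 3, 0 thyroid hormone genes were lower in the PFC, so that the Trh call rested on that library. Among those that rose, Hr, a thyroid-responsive corepressor, had shifts of 0.18 and 0.63 (adjusted p = 0.48 and 0.0068). Of 15 inflammatory and interferon genes, 2 rose in the PFC and 0 in the hypothalamus, and 15 of 15 had a positive difference without any passing. Their median shift was 0.23 in the PFC, where 12 of 15 were positive, and -0.51 in the hypothalamus, where 2 of 15 were. The hypothalamus median ran from -0.64 to -0.12 over 13 alternative fits. The difference was positive for 9226 of all 18971 genes, for 8 of 8 microglia markers (median 0.24) and for 9 of 10 mural and meningeal markers (median 0.30). It was also positive for 9 of 10 thalamus and 7 of 9 choroid plexus markers, but for 0 of 12 striatum and 0 of 12 myelinating oligodendrocyte markers. The part of these tissues and cell types in the values was not tested. Ifit1 and Ifit3 had differences of 1.06 (adjusted p = 0.54) and 0.83 (adjusted p = 0.50). Of 15 cell division genes, 1 fell in the PFC, Dcx (-0.67, adjusted p = 0.007), a marker of immature neurons, with -0.23 in the hypothalamus. Ccnb1 had 0.54 and -0.13. Of 18 collagen and matrix genes, 1 fell in the PFC, Col11a1 (-0.80, adjusted p = 0.012), with 0.01 in the hypothalamus, and Lox had 0.88 and -0.03. With the 5 marker-rich libraries left out, the PFC and hypothalamus calls were 1 and 1 for the activity-induced effector genes. For the heat shock and cold-inducible genes they were 2 higher and 1 lower in the PFC and 3 higher and 2 lower in the hypothalamus. They were 1 higher and 0 lower in the PFC for the thyroid hormone genes, 1 higher for the inflammatory and interferon genes, and 1 lower each for the cell division and the collagen and matrix genes.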

How the data were processed

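Per the labels and the study's methods, polyadenylated RNA of the PFC and the whole hypothalamus was sequenced as stranded paired-end libraries. Per the submitters' processing notes, bcl2fastq 2.20.0, STAR 2.7.2b (GRCm38) and featureCounts 1.6.2 were used. The authors deposited raw read counts, a whole number for each gene and library. Whether the count used strand is not clear, so overlapping genes on opposite strands are uncertain. The table names GENCODE identifiers, and symbols were matched for 55141 of 55401 identifiers.

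Libraries under 1000000 counted reads were left out (62 of 64 remained), genes were filtered with filterByExpr (minimum count 10), and TMM normalization and a robust quasi-likelihood fit of group and extraction pool over all 8 groups were made in edgeR 4.0.16 (R 4.3.3). Calls used a Benjamini-Hochberg adjusted p under 0.05 over 18971 genes. CPM are counts scaled by TMM library size. Alternatives used DESeq2 1.42.0, limma 3.58.1 (voom with quality weights and a mouse correlation, after the study's procedure but on 62 libraries, the study having left out 1 more), other filters, normalizations, covariates and sets of libraries. The pipeline was tested on simulated data.

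The replicate number is the cage number. The PFC and hypothalamus libraries with the same treatment, time and number came from 1 mouse. Residuals of the 15 vehicle pairs, with group and pool removed, had a mean correlation of 0.0363 (-0.126 to 0.335). No pair of vehicle libraries in a group had a chi-square per degree of freedom under 3.85 over 105 pairs. The genes named by rule were the called genes of the difference, the 6 shared genes in each direction with the smallest larger p and the 2 members of each list with the smallest p. One result under this rule is not reported here. Arc, Fosb, Fkbp5, Hif3a, Plin4, Zbtb16, Cdkn1a, Klf15, Dnajb1, Cirbp, Brs3, Cdr2, Rasd1, Nkx2-1, Arntl, Clock, Dbp and Per3 were added after their values were seen. The comparison, members and lists were chosen with earlier results of these data known. Within a group, each library is from a separate animal. Depth limits genes with few counts.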

Additional observations from a re-analysis of the deposited data

Results flagged for a closer look

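The test of the difference between the regions passed its threshold for Bhlhe40 (1.12), Per2 (0.85), Ier5 (0.73), Otub2 (0.59), Inka2 (0.85), Alox12b (1.50) and Foxb1 (-3.50). With the mouse as a block, Ier5 (0.73), Inka2 (0.88), Alox12b (1.47) and Foxb1 (-3.22) did not pass. Foxb1 passed the filter on low counts through the hypothalamus, with 1 and 27 reads in the PFC groups, and without PFC 4-week replicate 3 its adjusted p was 0.63.

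In 20 of 100 groups of values, 1 library lay far from the others by Dixon's test, which chance does for about 1 group in 20. PFC 3 h replicate 6 had the lowest Inka2 level (161.9 CPM), the only Foxb1 read (0.0614 CPM) and the highest striatum (811.2 CPM) and choroid plexus (37.14 CPM) markers of its group. Hypothalamus 3 h replicate 6, from the same mouse, had the highest Inka2 (17.82 CPM), Ier5 (19 CPM), striatum (776.5 CPM) and choroid plexus (105.8 CPM) values. Replicate 6 also had the highest striatum markers at 4 weeks, with 2243 CPM in the PFC and 788.8 CPM in the hypothalamus. PFC 4-week replicate 3 had the most counted reads (70361839) and hypothalamic neuron markers (15.69 CPM). Those markers reached 852.1 CPM in hypothalamus 3 h replicate 8. Choroid plexus markers reached 1279 CPM in hypothalamus 4-week replicate 3. Pituitary markers stood out in replicate 4 at 3 h (4.774 CPM in the PFC and 15.31 CPM in the hypothalamus) and in replicate 1 at 4 weeks (41.71 and 376.7 CPM). Replicate 1 at 3 h had the lowest Bcl6 level in the PFC (24.06 CPM) and the lowest Banp level in the hypothalamus (16.33 CPM). What these libraries add to the results was not tested beyond the fits without them.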

How the results depend on the processing

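The counts of calls in the difference between regions, the PFC, the hypothalamus, both regions and the psilocybin difference (7, 896, 130, 74 and 22) moved as follows. DESeq2 gave 20 (9 higher, 11 lower) for the difference, 98 for psilocybin and 2 for the contrast of treatments (0 in edgeR). Weighted voom with a mouse correlation gave 29 (12 higher, 17 lower), 1478, 1120, 323 and 120. DESeq2 kept 7 and voom 5 of the 7 genes. With no filter there were 2, 425, 60, 32 and 4. With all 64 libraries there were 2, 521, 53, 32 and 11, and with 61, without hypothalamus psilocybin 4-week replicate 5, 16, 1571, 225 and 124. Within cages 1 to 4 there were 4, 1075, 17, 10 and 1, and within cages 5 to 8 there were 0, 44, 12, 5 and 0. Without the 5 marker-rich libraries there were 2, 449, 83 and 37, and the PFC shift of Nkx2-1 went from -2.24 (adjusted p = 0.013) to 1.09 (adjusted p = 0.60), on 15 and 118 PFC reads, 80 of them in 4-week replicate 3. Without the extraction pool psilocybin had 11 calls, and with only the vehicle groups the difference had 3. In the paired analysis, the mouse block gave 3 calls for the difference and 3 for psilocybin, and the cage block 9 and 7. The mouse block changed the calls of Ier5, Inka2, Alox12b and Foxb1 and kept those of Bhlhe40, Per2 and Otub2. It cannot give calls within 1 region. Leaving out 1 vehicle library at a time gave 6 to 16 calls for the difference, 480 (without PFC 3 h replicate 4) to 1378 (without PFC 3 h replicate 5) in the PFC, 67 (without hypothalamus 3 h replicate 4) to 140 in the hypothalamus, 40 to 79 in both, 14 to 31 for psilocybin and 0 for the contrast of treatments. In these 31 fits Bhlhe40, Per2, Otub2, Ier5 and Inka2 kept their call, Alox12b lost it in 1 (without hypothalamus 3 h replicate 8, adjusted p = 0.052), and Foxb1 in 12. The causes were not tested.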
